A study of Mus musculus with 8 samples.

Results

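The genes described here encode proteins of the 40S ribosomal subunit, the small subunit of the ribosome outside mitochondria. They are 29 of the 39017 genes in the count table, chosen by their GENCODE symbol and protein-coding type. The small subunit binds the messenger RNA, scans it for the start codon and holds the decoding centre, where codons are read by transfer RNAs. Its proteins are built around the 18S ribosomal RNA in the nucleolus, and loss of a single one of them can stall that assembly. Most of their mRNAs begin with a run of pyrimidines, the 5′ terminal oligopyrimidine (TOP) tract, through which the kinase mTOR and the RNA-binding protein Larp1 set how strongly they are translated.

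RNA was sequenced from translating ribosome affinity purification (TRAP), in which ribosomes carrying a tagged protein, here L10-EGFP, are pulled down with the mRNAs on them. The 5 conditional knockout (cKO) libraries came from CCK cre+, L10-EGFP+ mice that were SMARCA3 fl/fl, and the 3 wild-type (WT) libraries from littermates lacking the SMARCA3 fl/fl genotype. Hltf encodes SMARCA3, a chromatin remodeller. Cre under the control of Cck marks cells that express the neuropeptide cholecystokinin or once did, and the pull-down was made from hippocampus with 4 hippocampi in each library. Age, sex and which exons are floxed are not given in the sources used here, and no label says how the pools relate, so p-values measure the spread between pools.

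Library totals ran from 31760155 to 61823651 counts in cKO and from 37239119 to 49522676 in WT. Hltf had 5.10, 4.49, 4.21 and 2.83 CPM (counts scaled by the TMM-adjusted library total) in cKO 1 to 4, and 11.4 CPM in the library with the label cKO 5, against 13.7, 8.39 and 9.87 CPM in WT 1 to 3, so that library went against its label. Without the library labelled cKO 5, the median log2 fold change of the 29 genes was -0.18, against -0.17 with all 8 libraries. Cck averaged 661 ± 108 CPM in cKO (SD, n = 5) and 540 ± 112 CPM in WT (SD, n = 3), and Slc17a7, the vesicular transporter of glutamatergic neurons, averaged 484 ± 44.7 CPM in cKO and 344 ± 17.9 CPM in WT. Summed neuronal and CCK cell markers ran from 8673 to 12670 CPM in cKO and from 7923 to 8528 CPM in WT. Of these 10 markers, 6 had a log2 fold change above 0 and 4 below. Among the lower ones, Gad2 averaged 68.8 CPM in cKO and 86.4 CPM in WT (log2 fold change -0.33). Vip and Slc17a8 were at -0.51 and -0.51. None of 12 oligodendrocyte markers was at 0 throughout, and they summed to 85.3 to 110.5 CPM in cKO, against 73.4 to 78.2 CPM in WT. The share of counts from mitochondrial genes was 0.169 to 0.530% in cKO and 0.139 to 0.177% in WT.

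The annotated start sites of the small-subunit genes were searched for the TOP tract. Of the 29 genes, 25 matched the RefSeq promoter table (GRCm38.p6) and 4 did not: Rps14, Rps20, Rps27a and Rps29. The tract was searched on the gene's own strand as a C within 5 bases of an annotated start followed by at least 4 bases that are each C or T. A gene with several annotated starts was counted if any of them matched. The 6 windows of 30 bases below run 5′ to 3′, with the tract in capitals where one was found, and were chosen to set genes lower in cKO beside Rps27, the close relative of Rps27l, and Rps15, the gene with the highest fold change.
Rps6, chr4:86857353-86857382, minus strand: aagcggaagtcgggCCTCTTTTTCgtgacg
Rps24, chr14:24490663-24490692, plus strand: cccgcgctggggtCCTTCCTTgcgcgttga
Rps27, chr3:90213634-90213663, minus strand: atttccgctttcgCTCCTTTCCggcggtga
Rps27l, chr9:66946071-66946100, plus strand: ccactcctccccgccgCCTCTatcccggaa
Rps13, chr7:116334176-116334205, minus strand: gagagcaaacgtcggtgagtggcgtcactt
Rps15, chr10:80292416-80292445, plus strand: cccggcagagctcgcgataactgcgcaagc
The tract was found for 13 of the 25 small-subunit genes (52.0%), for 17 of 36 large-subunit genes (47.2%) and for 5718 of all 27025 genes in the table (21.2%). Rps13 and Rps15 had no match in these windows, which says only that the letters are not there. Rps24 and Rps27l each have another annotated start, not shown, where no tract was found. The 13 genes with a match had a median log2 fold change of -0.15 with 10 below 0, and the 12 without one had a median of -0.10 with 8 below 0.

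All 29 genes passed the filter on low counts, and none was called in cKO against WT at an adjusted p under 0.05 by edgeR's quasi-likelihood test with Benjamini-Hochberg adjustment over the 17654 genes tested. By edgeR, 0 genes of the whole table were called in either direction, although 886 passed an unadjusted p of 0.05 on the higher side and 654 on the lower side. The calls of DESeq2 were 86 higher and 57 lower, and those of limma-voom were 3 and 1. Among the small-subunit genes, 9 were lower at an unadjusted p under 0.05 and 0 were higher, beside 3.70% of all genes tested that were lower and 5.02% that were higher. Every cKO library lay below every WT library for 9 of the 29, beside 3.82% of all genes, and above for 0, beside 3.38%. Without WT 3 the lower count was 15, beside 7.1% of all genes. With cKO 1 left out, 3 genes (Rpsa, Rps19 and Rps15) were higher at an unadjusted p under 0.05. The share of all genes at that p is not given here for that fit. In that setting 0 of the small-subunit genes had every cKO library above every WT library, beside 6.55% of all genes. The separation also depended on scaling: in TPM (counts per kilobase of exon, scaled to the same total in every library) 16 genes had every cKO library below every WT library, beside 6.68% of all genes, and 0 had every one above, beside 1.27%. On that scale Rps4x overlapped, and Rps2, Rps9, Rps12, Rps16, Rps20, Rps23, Rps25 and Rps29 did not. The median difference of all genes was -0.14 in log2 TPM, against -0.01 in log2 CPM, and relative to it the median of the 29 genes was -0.17. The median log2 fold change was -0.17 with 21 of 29 below 0, against a median of 0.02 over all genes tested, of which 47.0% were below 0. The values ran from -0.60 for Rps27l to 0.44 for Rps15, so the genes of the subunit did not lie on one side as a block. In bulk pull-downs, fewer cells of a type and less RNA per cell cannot be told apart.

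**Figure D1:**
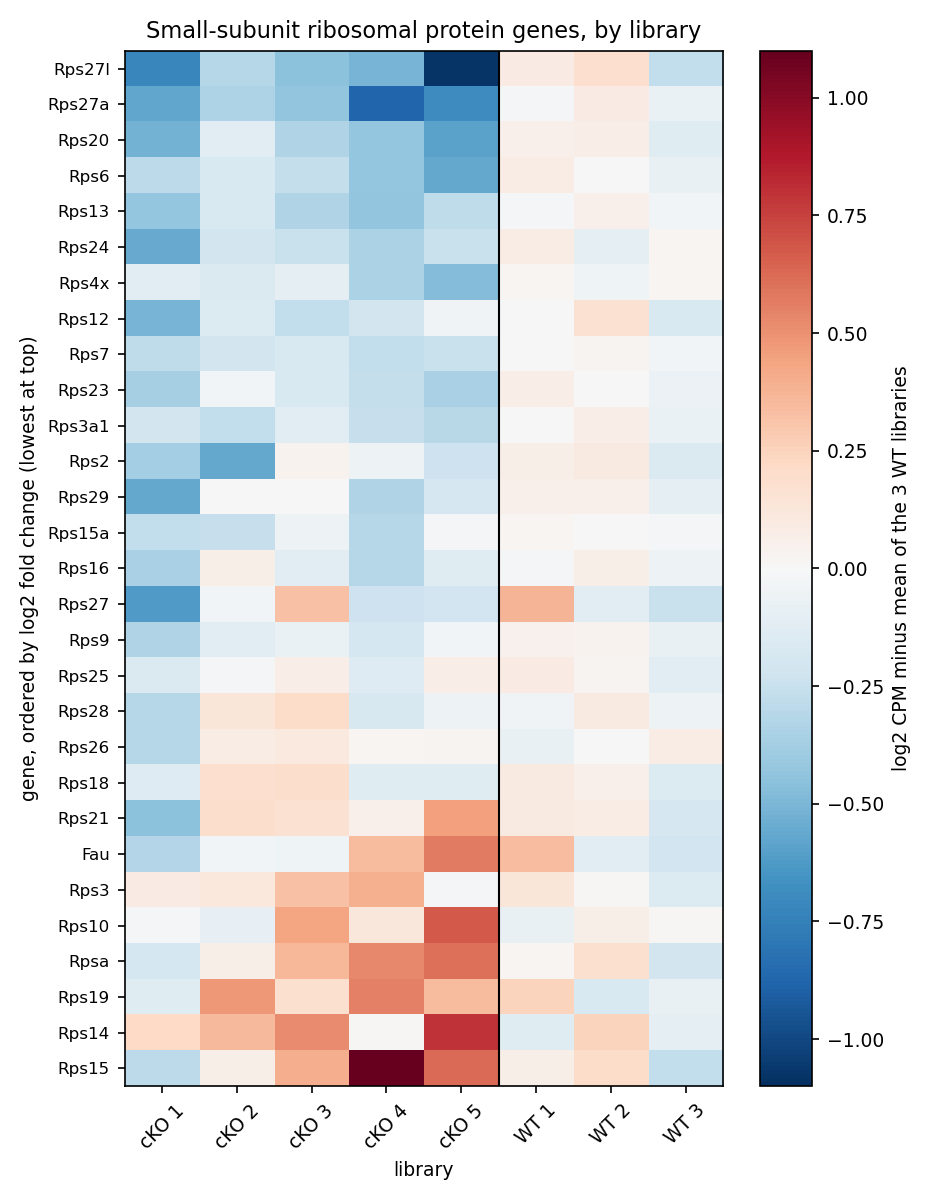
Heat map of the 29 small-subunit genes (rows, ordered by log2 fold change) in the 5 cKO and 3 WT libraries (columns; cKO 5 is the library so labelled), with colour giving log2 CPM minus the mean of the WT libraries. Blue cells fill most of the cKO columns in the upper rows, and red cells appear at the foot of the map, where Rps15 has the highest log2 fold change (0.44).

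The proteins of the head of the subunit, which swivels as transfer RNAs and mRNA move through the ribosome, numbered 12. In the lists of CPM values that follow, cKO 1 to 4 come in order, then the library labelled cKO 5, then WT 1 to 3. Rps27a, on chr11:29545846-29548109, encodes ubiquitin fused to a protein of the beak of the head and so supplies both ubiquitin and a ribosomal protein. It had 129, 150.8, 141, 105 and 118 CPM in cKO, against 189, 204 and 182 CPM in WT. The highest cKO library lay below the lowest WT library. Its log2 fold change was -0.57 (SE 0.12), the smallest p of the 29 genes (unadjusted 6.23e-04, edgeR adjusted p 0.470), and the exact permutation test gave p = 0.0179, the smallest that 56 splits allow. Rps27a was the 1 member that DESeq2 called (adjusted p 0.00979).

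Rps20, a head protein near the mRNA path, had 73.9, 97.2, 84.2, 79.1 and 70.5 CPM in cKO, against 110.3, 111 and 96.8 CPM in WT. Only cKO 2 reached the lowest WT library. The log2 fold change of Rps20 was -0.39 (SE 0.12, unadjusted p 0.00805, edgeR adjusted p 0.499). Rps29, a zinc-binding head protein, had 123, 182, 183, 145 and 161 CPM in cKO and 189.8, 189.5 and 169.5 CPM in WT, and cKO 2 and cKO 3 lay above WT 3 in CPM, though not in TPM. Its log2 fold change was -0.20 (SE 0.13), and -0.12 without cKO 1. Rps12 and Rps16, also of the head, were at -0.23 and -0.17 with groups that overlapped in CPM but not in TPM, and Rps12 was at -0.15 without WT 2. Rps18, Rps25 and Rps28 lay between -0.04 and 0.00, closer to 0 than their SEs of 0.09 to 0.13.

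The other 4 head proteins had fold changes above 0. Rps15, which sits near the decoding site and has a tail that touches the transfer RNA, had 63.2, 80.7, 101.8, 164 and 119 CPM in cKO, against 80.4, 88.8 and 64.0 CPM in WT. The cKO libraries spanned the WT range on both sides, with cKO 1 below all WT libraries and cKO 4 the highest of the 8. Its log2 fold change was 0.44 (SE 0.26, edgeR adjusted p 0.668, exact permutation p 0.321), and Rps15 also had the largest spread of the 29 genes within cKO, an SD of 0.53 in log2 CPM. Without cKO 4 its log2 fold change was 0.23. Rps19, mutated in Diamond-Blackfan anaemia, had 18.0, 27.6, 22.4, 29.1 and 25.15 CPM in cKO and 23.4, 17.65 and 18.7 CPM in WT, with overlapping groups and a log2 fold change of 0.30 (SE 0.19). Rps10, at the mRNA entry, and Rps3, which forms part of the entry channel and also has a role in DNA repair, were at 0.25 (SE 0.18) and 0.18 (SE 0.13). Without the library labelled cKO 5 Rps10 was at 0.12, and without WT 3 Rps3 was at 0.11.

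The body and platform of the subunit, which hold the mRNA exit, the contact with the large subunit and the binding surface of initiation factor eIF3, contributed 17 proteins. Here 8 of the 17 had every cKO library below every WT library and 7 were lower at an unadjusted p under 0.05, against 1 and 2 of the 12 head proteins. The medians were -0.22 for the body and -0.03 for the head. The assignment to head and body is from general knowledge and was made with the values in view, so no test of it was made.

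Rps6, on chr4:86854660-86857412, is the phosphorylation target of the S6 kinases downstream of mTOR, and its phosphorylation is widely used as a mark of active neurons. It had 244.5, 266, 249, 222 and 203 CPM in cKO, against 316, 299 and 283 CPM in WT. The groups did not overlap, the nearest libraries being cKO 2 and WT 3. The log2 fold change of Rps6 was -0.34 (SE 0.10), with an unadjusted p of 0.00679, an edgeR adjusted p of 0.499 and an exact permutation p of 0.0179. These counts are of Rps6 mRNA and carry nothing on the phosphorylation of its protein.

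Rps27l and Rps27 are paralogues that encode near-identical zinc-finger proteins, and Rps27l is known as a target of p53. Rps27l, on chr9:66946086-66949516, had 19.5, 25.8, 23.5, 22.5 and 15.2 CPM in cKO, against 34.1, 36.5 and 26.55 CPM in WT. Its groups did not overlap, though cKO 2 and WT 3 lay close. The log2 fold change of -0.60 (SE 0.19, edgeR adjusted p 0.499) was the lowest of the 29. Rps27 had 47.85, 72.2, 91.9, 62.9 and 63.6 CPM in cKO and 95.4, 67.4 and 62.01 CPM in WT. The groups overlapped, with WT 3 below 4 of the 5 cKO libraries. Its log2 fold change was -0.15 (SE 0.20), -0.04 without cKO 1 and 0.06 without WT 1. The difference between the paralogues was not tested.

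Rps13, Rps24 and Rps7 formed the next group of separated genes. Rps13, which lies where the subunits meet, had 133, 159.5, 142, 132 and 148 CPM in cKO, against 176, 186 and 175 CPM in WT. Rps24, on the body and another gene mutated in Diamond-Blackfan anaemia, had 117.5, 149.9, 146, 136 and 146 CPM in cKO, against 183, 161 and 176 CPM in WT. Rps7, which is needed for processing of the small-subunit RNA, had 146, 154, 157, 147 and 149 CPM in cKO, against 177, 180 and 173 CPM in WT. In all of these the highest cKO library was below the lowest WT library, and for Rps7 the cKO libraries were closest together of all 29 genes, with an SD of 0.05 in log2 CPM. The log2 fold changes were -0.32 for Rps13 (SE 0.09, unadjusted p 0.00517), -0.32 for Rps24 (SE 0.10, p 0.011) and -0.23 for Rps7 (SE 0.08, p 0.0156), each with an edgeR adjusted p of 0.499 and an exact permutation p of 0.0179.

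Rps3a1, Rps4x and Rps15a completed the genes without overlap. Rps3a1, an eIF3-side protein of the platform, had 145, 138, 153, 140.4 and 135 CPM in cKO, against 167, 176 and 159 CPM in WT. Rps4x, the X-linked S4 protein of the body, had 144, 140.4, 146, 123 and 112.5 CPM in cKO, against 159, 152 and 159 CPM in WT. Rps15a, which binds the body RNA, had 211, 214, 246, 206 and 251 CPM in cKO, against 259.7, 254 and 252.5 CPM in WT. The separation was narrow for Rps15a, whose library labelled cKO 5 came within about 1 CPM of WT 3. Their log2 fold changes were -0.23, -0.23 and -0.18, and by edgeR Rps3a1 reached an unadjusted p of 0.0225, while Rps4x (0.0513) and Rps15a (0.0859) did not pass 0.05. Rps23, a decoding-centre protein, was lower at an unadjusted p of 0.0411 with overlapping groups, at 169.8, 214, 195, 183 and 171 CPM in cKO and 230.5, 218 and 209 CPM in WT.

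**Figure D2:**
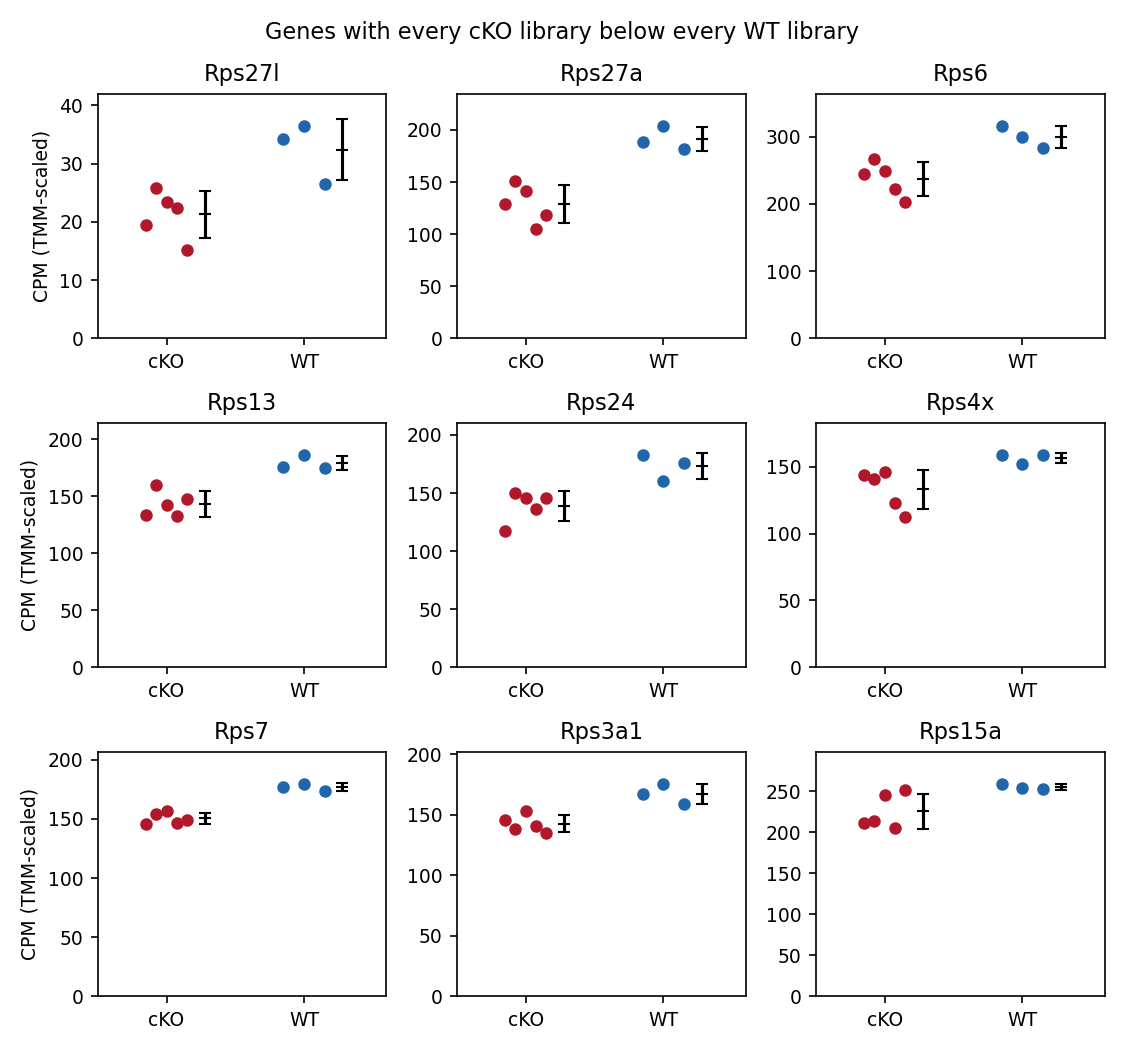
CPM of the 9 small-subunit genes whose 5 cKO libraries (red points, left) all lie below the 3 WT libraries (blue points, right), with the mean and SD of each group beside the points and axes from 0. Rps27l and Rps27a have the lowest log2 fold changes (-0.60 and -0.57), and the nearest libraries of the groups almost touch for Rps27l (25.8 and 26.55 CPM) and Rps15a (251.4 and 252.5 CPM).

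Among the remaining body proteins, Rpsa, the laminin receptor precursor that sits at the mRNA exit, had 29.5, 35.2, 43.3, 48.7 and 51.3 CPM in cKO and 34.3, 38.2 and 29.3 CPM in WT. Rps14, a platform protein whose loss marks the 5q- syndrome in humans, had 16.6, 18.25, 20.5, 14.3 and 24.75 CPM in cKO and 12.95, 16.85 and 13.2 CPM in WT. Fau, a fusion of a ubiquitin-like protein with the small-subunit protein S30, had 42.3, 51.8, 51.3, 67.4 and 78.7 CPM in cKO and 66.95, 48.65 and 45.7 CPM in WT. The groups overlapped in all of these. The log2 fold changes were 0.29 for Rpsa (SE 0.19), 0.40 for Rps14 (SE 0.20, unadjusted p 0.0773) and 0.12 for Fau (SE 0.21). Rps21, next to Rpsa, was at 0.11 (SE 0.18), and at 0.0044 without the library labelled cKO 5. Fau was at -0.02 without that library. In log2 TPM the differences of Fau and Rps21 were -0.04 and -0.06, which lie above the all-gene median on that scale. Rps9 and Rps26, of the body and the mRNA exit, were at -0.15 and -0.01.

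Levels of different genes were compared per length, in TPM. On the union of annotated exons the highest levels were those of Rps29 (480 ± 52.7 in cKO, 612.5 ± 9.26 in WT), Rps6 (315 ± 43.2 in cKO, 438 ± 9.74 in WT) and Rps23 (309 ± 22.5 in cKO, 401 ± 11.8 in WT; SD, n = 5 and 3). The lowest were Rpsa (27.45 ± 5.15 in cKO, 24.8 ± 2.23 in WT), Rps14 (16.6 ± 3.53 in cKO, 13.9 ± 2.04 in WT) and Rps19 (10.9 ± 1.27 in cKO, 9.86 ± 1.23 in WT). The WT levels of Rps6 and Rps23 differed by more than their SDs, while those of Rps23 and Rps3a1 (401 and 397) did not. The order depends on the length used: with the length of 1 principal coding transcript a gene, Rps25, Rps29 and Rps15a led, and Rps14, Rps20 and Rpsa came last. For Rps20 that length was 3706 bases, the same as its longest annotated transcript, so its low place depends on that choice. Most of these genes encode proteins that are present once in each subunit, while the paralogues Rps27 and Rps27l encode near-identical ones. The levels here spanned more than a factor of 10 by either length. Counts held by copies of the genes, given below, make these levels uncertain.

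The 5 cKO libraries did not shift alike. The median position of the 29 genes relative to the WT mean was -0.31 in cKO 1, -0.03 in cKO 2, -0.05 in cKO 3, -0.20 in cKO 4 and -0.13 in the one labelled cKO 5, against 0.06, 0.06 and -0.08 in WT 1 to 3 (log2 CPM). WT 3 lay below cKO 2 and cKO 3 on this measure, so the groups overlapped. Of the 29 genes, 17 had their lowest cKO value in cKO 1. The genes took 0.271 to 0.324% of the counts of a cKO library and 0.324 to 0.353% of those of a WT library. Counting error was small beside these differences: the SD expected from counts alone was 0.013 to 0.0518 in log2 units, below the pooled SD between libraries for every one of the 29 genes. The 49 large-subunit genes gave closely like medians, -0.32, -0.04, -0.06, -0.20 and -0.17 in cKO and 0.04, 0.05 and -0.12 in WT.

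**Figure D3:**
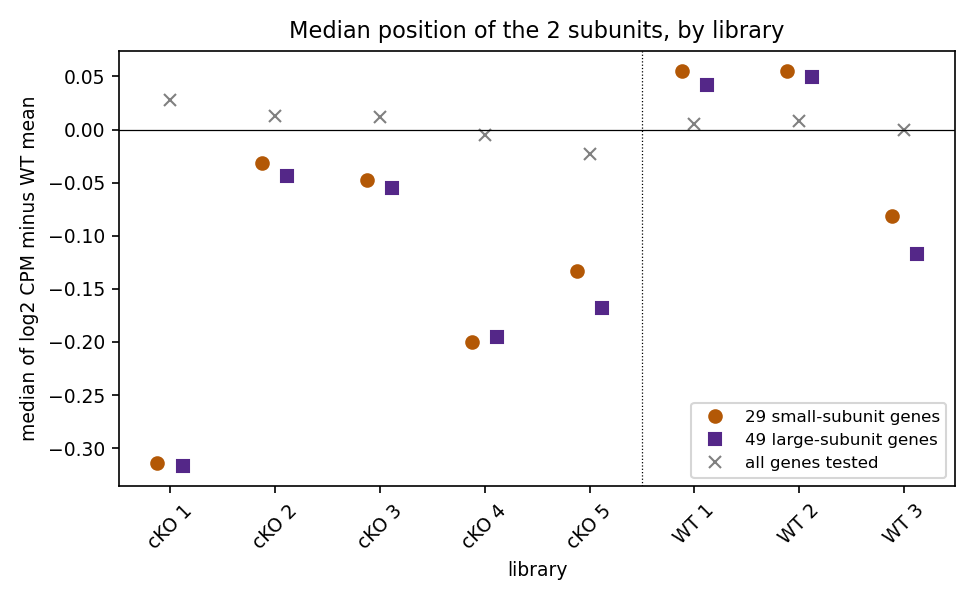
Median log2 CPM relative to the WT mean of the 29 small-subunit genes (circles), the 49 large-subunit genes (squares) and all genes tested (crosses) in each cKO and WT library. The circles and squares move together from library to library, lowest in cKO 1, while the crosses stay between -0.02 and 0.03.

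The genes also differed by base composition. Across the 29 genes the log2 fold change was higher at higher GC content of the principal coding transcript (Spearman's rho 0.652, a description over genes that share the same 8 libraries). By the longest annotated transcript the rho was 0.64, beside 0.321 over the 7548 genes tested whose log2 CPM averaged more than 4. The 15 genes of higher GC content, at or above the median of 50.7%, had a median log2 fold change of 0.00 with 8 below 0. The 14 of lower GC content had a median of -0.23 with 13 below 0. In single libraries the rho between a gene's position relative to the WT mean and its GC content was 0.298 to 0.632 in cKO and -0.228 to 0.136 in WT. Only the WT positions are centred on their own mean, so the ranges are not like for like. Over the 7548 genes, by the longest transcript, the rho ran from -0.22 (cKO 1) to 0.37 in cKO and from -0.232 to 0.165 in WT. Against mean log2 CPM, which is not scaled by length, the rho of the log2 fold change was -0.514. Each library's trend on GC content and length was then removed, with both taken from the longest transcript. The median was -0.10 with 18 of 29 below 0, against a median of 0.02 over all genes tested. Rps27a, Rps20, Rps6, Rps27l and Rps2 were lower at an unadjusted p under 0.05. The share of all genes past that p in this fit is not given here. Rps27a was then at -0.43 and Rps6 at -0.44. For Rps6 the GC content was 58.9% in the longest transcript and 50% in the principal one. The removed trend is therefore not on the GC content of the principal transcript.

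**Figure D4:**
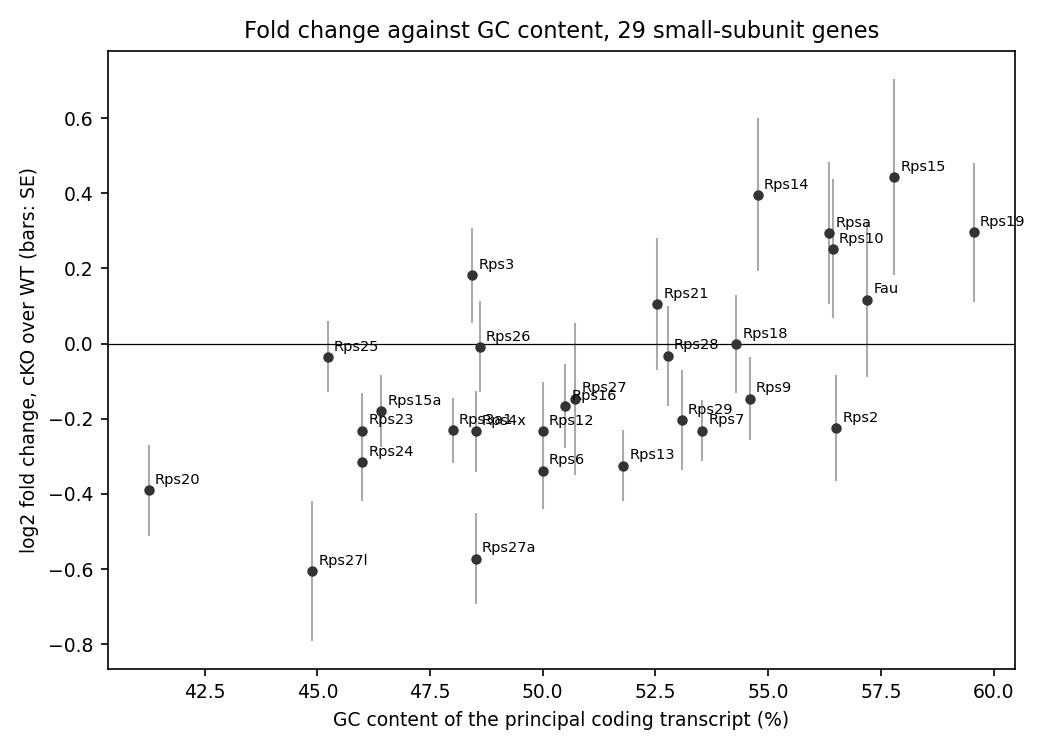
Log2 fold change, cKO over WT, of each of the 29 small-subunit genes against the GC content of its principal coding transcript, with bars for the SE. Of the 15 genes of higher GC content, 8 lie below 0, among them Rps2, Rps7, Rps9 and Rps29, while Rps15, Rps14 and Rps19 lie above 0. Most genes under 52% lie below 0.

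Ribosomal protein genes have many processed copies in the genome, so reads from one mRNA can match several places. Among the counted genes, 118 annotated copies shared at least 10% of the 50-base words of 26 of the genes. For members other than Rps2, 81 of 93 copies had a fold change of the same sign as the parent gene. Rps6-ps4 equals Rps6 over all 747 coding bases, as the window of 60 coding bases below shows (GRCm38, minus strand in both).
Rps6, chr4:86854801-86854860: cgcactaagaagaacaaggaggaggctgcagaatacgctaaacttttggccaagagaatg
Rps6-ps4, chr2:75191172-75191231: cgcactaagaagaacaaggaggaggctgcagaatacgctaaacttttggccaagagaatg
Counts of Rps6-ps4 were 0.751 to 0.785 times those of Rps6 in each of the 8 libraries, and its log2 fold change of -0.36 stood beside -0.34 for Rps6. Rps27rt, a protein-coding copy identical to Rps27 over 252 coding bases, held 0.401 to 0.434 of the Rps27 count. A group of 7 copies of Rps12 had counts equal to those of another copy in every library. How reads with several matches were counted is not given in the sources used here, so the levels of the genes with such copies are uncertain in the share that the copies hold. Single copies also had a median ratio of 0.803 to Rps16 (Rps16-ps2), 0.651 to Fau (Gm9843), 0.622 to Rps7 (Gm6472), 0.593 to Rps27a (Gm8430), 0.542 to Rps28 (Gm10443) and 0.537 to Rps29 (Gm14303). The lowest shares of 50-base words found in another gene were 2.96, 7.44, 19.1 and 22.4%, for Rps3, Rps20, Rps24 and Rps27l. Each share is over all words of the principal transcript, which had 3706 bases for Rps20 and 1613 for Rps24. Words of Rps20 were found in 31 other genes, 24 of them counted, so a low share does not show low exposure. Among these genes, Rps20, Rps24 and Rps27l were lower at an unadjusted p under 0.05, beside 3.70% of all genes. Rps3, with the lowest share, had a log2 fold change of 0.18 (SE 0.13).

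Rps2, a decoding-side protein that opens the mRNA entry, parted from its copies. It had 76.1, 66.8, 101.2, 94.4 and 84.0 CPM in cKO and 103, 105 and 88.2 CPM in WT, lowest in cKO 2. Its log2 fold change was -0.22 (SE 0.14, unadjusted edgeR p 0.139), and -0.14 without cKO 2. Its 25 copies together held 3.66, 7.71, 3.65, 4.06 and 5.44 counts for each Rps2 count in cKO, against 3.60, 3.47 and 3.39 in WT, so the ratio was highest in cKO 2 and next in the library labelled cKO 5. In cKO 2, 17 of the 25 copies had their highest ratio, and only 2 of the 25 had a fold change of the sign of Rps2. Gm6576, 97.6% identical to Rps2 over its 879 coding bases, had 281, 1710, 196, 288 and 587 counts in cKO, against 303, 383 and 288 counts in WT. The base in which the windows below differ is in capitals (GRCm38, plus strand in both).
Rps2, chr17:24721106-24721165: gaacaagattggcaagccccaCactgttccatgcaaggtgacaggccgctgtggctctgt
Gm6576, chr15:27025844-27025903: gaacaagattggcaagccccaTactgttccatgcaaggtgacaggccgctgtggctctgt
Whether some reads of Rps2 were counted to its copies in cKO 2 was not tested.

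**Figure D5:**
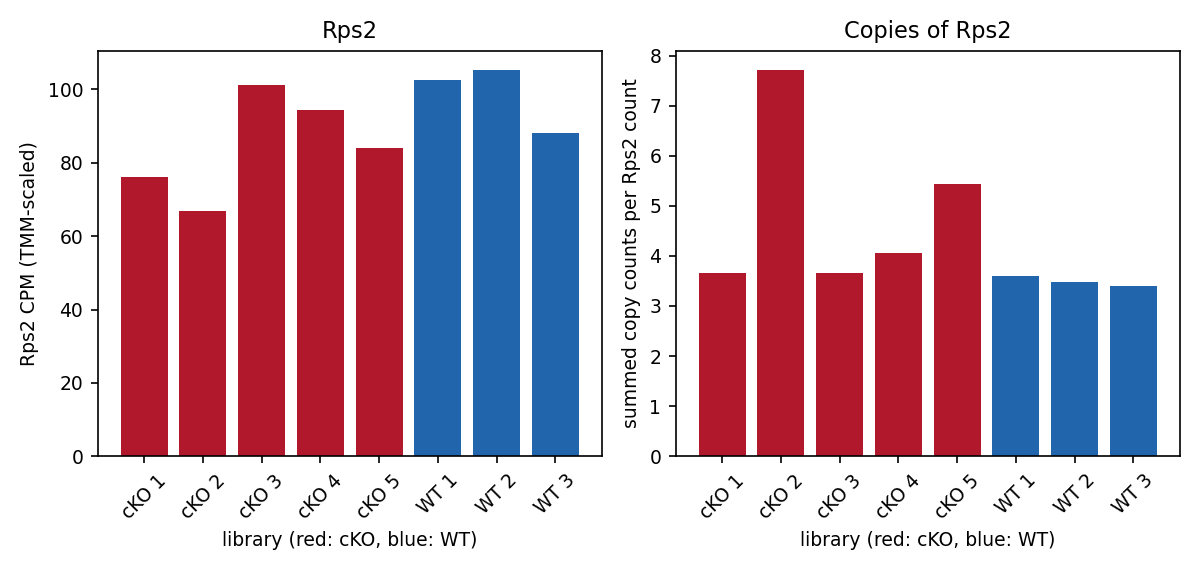
Left, CPM of Rps2 in each cKO (red) and WT (blue) library; right, the summed counts of its 25 annotated copies for each Rps2 count. The ratio is 7.71 in cKO 2, where Rps2 itself is lowest (66.8 CPM), and 3.39 to 3.60 in the WT libraries.

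The rest of the translation machinery was read from lists that were chosen with earlier results of these data known. Of the 5 other small-subunit proteins, all were below 0 (median log2 fold change -0.17), and Rack1, a scaffold of signalling proteins on the head, was lower at an unadjusted p under 0.05. Rack1 had 53.9 ± 7.96 CPM in cKO (SD, n = 5) and 67.1 ± 3.25 CPM in WT (SD, n = 3). Of the 49 large-subunit genes, 12 were lower and 0 higher at that level (median -0.16), with Rpl12, Rpl27a and Rpl4 at the smallest p and log2 fold changes of -0.55, -0.49 and -0.36. Factors that assemble the small subunit had a median of -0.18, with 1 of 33 lower, Pdcd2l (-0.57), and 0 higher. Initiation factors that act on the small subunit had a median of -0.10, with 6 of 30 lower and 0 higher, among them Eif3f and Eif3e, subunits of eIF3, at -0.39 and -0.29. Other TOP mRNAs had a median of -0.20, with 7 of 17 lower and 1 higher. Naca, which guards nascent chains at the ribosome exit, had 206 ± 6.87 CPM in cKO and 265.5 ± 8.43 CPM in WT, and Gas5, a snoRNA host transcript with a TOP start, was at -0.35. Lower genes made up 24.5% of the large-subunit list, 3.03% of the assembly list, 20.0% of the initiation list and 41.2% of the TOP list, beside 3.70% of all genes, and Eif3e, Eif3f and Eif3h stand in both the initiation and the TOP list.

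The signalling genes upstream of TOP mRNAs and S6 had a median of 0.11, and past an unadjusted p of 0.05 lay 4 of 19, 2 higher and 2 lower, beside 5.02% and 3.70% of all genes. Rptor, the mTORC1 subunit that binds its substrates, had 45.05 ± 5.84 CPM in cKO and 28.7 ± 5.30 CPM in WT, with every cKO library above every WT library (log2 fold change 0.65, SE 0.16, edgeR adjusted p 0.480). Rheb, the GTPase that activates mTORC1, had 136 ± 17.7 CPM in cKO and 186 ± 17.7 CPM in WT, with every cKO library below every WT library (-0.45, SE 0.12, edgeR adjusted p 0.480). Rps6kb2, which encodes an S6 kinase, was at 3.58 ± 1.04 CPM in cKO and 1.97 ± 0.60 CPM in WT. Of the mitochondrial small-subunit proteins, a separate ribosome, 5 of 31 were lower and 2 higher (16.1% lower, beside 3.70% of all genes), with Mrps35 at -0.60, Mrps12 at -0.34 and Mrps27 at 0.51. Oligodendrocyte markers moved with the group as given above, with 12 of 12 above 0. Of these, 3 were higher at an unadjusted p under 0.05, beside 5.02% of all genes. Choroid plexus and ependymal markers summed to 26.3 to 77.1 CPM in cKO and 27.55 to 38.7 CPM in WT, with 4 of 4 tested above 0 and 1 of them higher at that level, and Tmem212 was at 0 in every library. Astrocyte markers summed to 335 to 505 CPM in cKO and 328 to 436.5 CPM in WT, with 7 of 9 above 0 and 1 higher at that level. Vessel markers summed to 21.5 to 86.2 CPM in cKO and 54.3 to 72.4 CPM in WT, with 3 of 5 tested above 0. Of the 7 microglia markers tested, 5 were below 0 and 1 was lower at that level, beside 3.70% of all genes. All 4 blood markers tested were below 0. The part of these cell markers in the results for the small-subunit genes was not tested.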

How the data were processed

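Libraries were prepared from TRAP RNA by Illumina protocols, per the labels. The deposited table holds raw counts per gene, made with STAR 2.5.3a and HTSeq on mm10 per the submitters' processing notes; annotation release, strand setting and handling of reads with several matches are not given in the sources used here. Symbols, positions, GC content and sequences of transcripts came from GENCODE vM21 (GRCm38, the same build), promoters from RefSeq.

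Counts were tested in R 4.3.3 with edgeR 4.0.16: TMM scaling, filterByExpr by group, a robust quasi-likelihood fit of all 8 libraries and Benjamini-Hochberg adjustment over 17654 genes, called at 0.05. CPM values use TMM-scaled totals; log2 CPM has a prior count of 2. Exact permutation tests, two-sided, used the 56 splits. Alternatives included DESeq2 1.42.0, limma-voom (limma 3.58.1), other scalings and filters, GC and length offsets (from the longest transcript), and each library left out. Python 3.11.15 with matplotlib 3.10.9 drew the figures.

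The members and the lists were chosen with earlier results of these data known. Values per library are given for members with no overlap between groups or an unadjusted p under 0.05, the 3 highest and 3 lowest per length, Rps27 and Rps27l, Rps27a and Fau, and Rps6; other lists give at most the 3 genes with the smallest p. Some genes named by that rule are not reported here. Rps15, Rps2 and Gm6576 were added after their values were seen. Per-length levels by principal transcript and non-overlap counts with libraries left out or on the TPM scale were also added after seeing the data.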

Additional observations from a re-analysis of the deposited data

Results flagged for a closer look

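Rps26, a protein at the mRNA exit, stood at 49.3 CPM in cKO 1, while the other cKO libraries lay between 62.4 and 65.8 CPM. The gap was 0.79 of the range of the 5 cKO libraries, above the limit of 0.71. WT libraries held 58.0, 61.1 and 64.9 CPM.

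Hltf stood at 11.4 CPM in the library labelled cKO 5, while the other cKO libraries lay between 2.83 and 5.10 CPM, a gap of 0.737 of the range. In all, 38 sets of libraries were looked at in this way, and chance marks about 5% of such sets.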

How the results depend on the processing

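The median log2 fold change of the 29 genes stayed below 0 under every alternative run, from -0.21 to -0.10. Genes called higher over the whole table numbered 1 with total-count scaling, 2 with no filter, 2 with a CPM filter, 86 by DESeq2, 3 by limma-voom, 5 with 6 libraries, 1 with GC and length offsets, 1 with these and the replicate block, and 2 at an adjusted p under 0.1; genes called lower numbered 57 by DESeq2, 1 by limma-voom and 5 with 6 libraries. DESeq2 called 1 small-subunit gene, Rps27a. Members higher at an unadjusted p under 0.05 numbered 2 by limma-voom (Rps14 and Rps3) and 0 to 3 with a library left out (3 without cKO 1: Rpsa, Rps19 and Rps15). Members lower numbered 5 with GC and length offsets. Shares of all genes at that p are not given here for these fits. Members with every cKO library below every WT library numbered 9 to 15 with a library left out, 15 without WT 3, where 7.1% of all genes did so, and 16 on the TPM scale. With a library left out, Rps18 ran from -0.0738 to 0.0463, Rps26 from -0.0476 to 0.0593, Rps28 from -0.0910 to 0.0307, Fau from -0.018 to 0.30, Rps25 from -0.0939 to 0.00993 and Rps27 from -0.27 to 0.064. Values that changed sign were, by limma-voom, Rps18 0.0918, Rps28 0.0303 and Rps27 0.0315; with 6 libraries, Rps18 0.0781, Fau -0.154, Rps21 -0.0125 and Rps28 0.017; with the replicate block, Rps18 0.073, Fau -0.14, Rps21 -0.0355 and Rps28 0.00114. With GC and length offsets they were Rps18 0.0454, Rps25 0.0146, Rps26 0.0962, Fau -0.0254 and Rps28 0.0522, and with these and the block Rps18 0.116, Rps25 0.00031, Rps26 0.0266, Fau -0.195, Rps15 -0.0148 and Rps28 0.0635. The cause was not tested. Deviations of same-numbered libraries from their group means had correlations of -0.0849, 0.0173 and 0.0406 over all genes tested. These correlations include low-count genes and few libraries a group, so they cannot decide how the pools relate. With the replicate block over 6 libraries the median was -0.14 and 7 members were lower at an unadjusted p under 0.05, against 9 without the block. The share of all genes at that p is not given here for either fit. Mean counts of the 29 genes ran from 776 to 12300 per library.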
